A study of Mus musculus with 24 samples.

Results

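The Dlk1-Dio3 region of mouse chromosome 12 is an imprinted domain that holds a large cluster of microRNAs (miRNAs), and 48 mature miRNAs of that cluster were followed here by name in the deposited table of miRNA counts, which lists 1908 mature miRNAs. All 48 names were present in the table, where each begins with mmu for mouse, a prefix left off below except beside sequences. They come from 39 precursors on the + strand, spread over 158 kb at chr12:109585789-109743795 (build GRCm38.p6). Small RNA was sequenced from liver of C57Bl/6J mice in 3 groups of 8 libraries each. RCD mice ate regular chow and were matched in age to the others. AM608 and AM132 mice were made obese by a high fat diet of 11 weeks and then received locked nucleic acid (LNA) oligonucleotides at 3.3 mg/kg intravenously on 3 consecutive days, with livers collected 7 days after treatment. AM132 is a 16-nucleotide antisense oligonucleotide against miR-132, and AM608 is a 15-nucleotide control directed at miR-608. The labels do not say whether RCD mice were injected, so diet, oligonucleotide injection and obesity cannot be told apart in any comparison with RCD. Sample numbers are not tied to animals in the labels, so the p-values speak only of how these libraries vary.

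The cluster is expressed from the maternally inherited chromosome, where the noncoding transcripts Meg3, Rian and Mirg are made, while the paternal chromosome expresses the protein-coding genes Dlk1, Rtl1 and Dio3. Its miRNAs are abundant in embryo, placenta, brain and muscle and are scarce in adult liver, and those antisense to Rtl1 can direct cleavage of the Rtl1 transcript. In liver, the stretch of the cluster from miR-379 to miR-410 has been described as a target of the glucocorticoid receptor with a part in lipid handling.

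The annotation (GRCm38.p6) placed Dlk1 at chr12:109452823-109463336, Meg3 at chr12:109541001-109571726, Rian at chr12:109603940-109661716 and Mirg at chr12:109729764-109749460, all on the + strand. Rtl1 lies on the - strand at chr12:109589193-109600330, and Dio3 on the + strand at chr12:110279068-110281097. By position the precursors fell into 3 blocks. The Rtl1 block held 8 precursors, from Mir337 to Mir136. Mir431, Mir433, Mir127, Mir434 and Mir136 lie opposite an exon of Rtl1, and Mir337, Mir540 and Mir665 are intergenic. The Rian block held Mir341 and Mir370, both in introns of Rian. The remaining 29 precursors, from Mir379 to Mir410, made up the miR-379/miR-410 block; those from Mir382 onward lie in exons or introns of Mirg and the earlier ones are intergenic.

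Mature sequences were found in RefSeq (GRCm38.p6) for 45 of the 48 miRNAs, and miR-376c-3p, miR-485-5p and miR-487b-3p are named only. Sequences are written 5′ to 3′ with the seed (bases 2 to 8), which pairs with target transcripts, in capitals. The first 6 are the most abundant miRNAs of the cluster in these livers, and each has a seed that no other of the 45 carries. Outside the 48, miR-1193-5p of the same region has the seed of miR-379-5p.
mmu-miR-379-5p: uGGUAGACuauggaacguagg
mmu-miR-381-3p: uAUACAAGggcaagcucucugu
mmu-miR-541-5p: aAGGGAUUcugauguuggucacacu
mmu-miR-411-5p: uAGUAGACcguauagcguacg
mmu-miR-434-5p: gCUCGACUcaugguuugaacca
mmu-miR-409-3p: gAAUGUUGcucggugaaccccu
The next 6 are those whose values separate the chow libraries from one another, with miR-376b-3p, miR-494-3p and miR-299a-3p least and miR-136-5p, miR-433-3p and miR-370-3p most raised in RCD library 3.
mmu-miR-376b-3p: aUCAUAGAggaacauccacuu
mmu-miR-494-3p: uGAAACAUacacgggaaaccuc
mmu-miR-299a-3p: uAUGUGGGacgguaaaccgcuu
mmu-miR-136-5p: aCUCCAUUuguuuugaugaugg
mmu-miR-433-3p: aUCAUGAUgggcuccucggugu
mmu-miR-370-3p: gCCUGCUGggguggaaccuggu
The last 3 are close relatives whose reads an assignment rule could mix. The 45 sequences carry 44 distinct seeds, and miR-379-3p and miR-411-3p alone share theirs.
mmu-miR-379-3p: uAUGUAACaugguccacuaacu
mmu-miR-411-3p: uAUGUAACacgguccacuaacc
mmu-miR-300-3p: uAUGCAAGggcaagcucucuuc
With positions counted from 1 at the 5′ end and miR-379-3p as reference, miR-411-3p differs by U10C and U22C. With miR-300-3p as reference, miR-381-3p differs by G4A, U21G and C22U, of which G4A lies in the seed. With miR-376a-3p as reference, miR-376b-3p differs by G4A, A13C and G20U, and with miR-495-3p as reference, miR-543-3p differs by A6U, A7U, A9G and U10C. miR-758-3p, which was not tested, differs from miR-379-3p by A2U, A6G and A9C over its shorter length. Since the assignment rule is unknown, values of all these miRNAs are uncertain in that respect.

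Hairpins are shown for Mir379, Mir411 and Mir434, 3 precursors of which both arms were tested, with the 5p and 3p arms in capitals. Mir379 lies at chr12:109709060-109709125, Mir411 at chr12:109710175-109710256 and Mir434 at chr12:109594506-109594599.
Mir379: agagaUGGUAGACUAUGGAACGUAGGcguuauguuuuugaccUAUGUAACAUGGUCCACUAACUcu
Mir411: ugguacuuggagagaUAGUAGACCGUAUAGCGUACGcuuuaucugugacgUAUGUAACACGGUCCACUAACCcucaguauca
Mir434: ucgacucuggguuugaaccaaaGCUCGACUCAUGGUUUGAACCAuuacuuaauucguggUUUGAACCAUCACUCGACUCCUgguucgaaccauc

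Libraries held 5689143 to 8380591 miRNA counts in RCD, 6855571 to 8532049 in AM608 and 5926983 to 8734721 in AM132. RCD library 3 stood apart before any comparison. It held 13521 counts of miR-7b-5p, a miRNA of endocrine and neural tissue, against 38 to 89 in the other 23 libraries, and 5067 counts of the neural miR-9-5p. Levels are given as CPM, counts scaled to a fixed library size after TMM correction of the totals. The 6 hepatocyte markers summed to 265128 CPM in RCD library 3, the lowest of all libraries, and to 324901 to 636961 CPM in the other 23, so every library carried the labelled tissue. RCD library 4 shared part of this pattern, with 317 counts of miR-9-5p and 993 of the muscle miRNA miR-1a-3p. Raised miR-9-5p was not limited to these 2 libraries. RCD libraries 5, 6 and 7 held 214, 104 and 206 counts of it, against 11 to 61 in the obese libraries. Leaving out libraries 3 and 4 does not remove those. Results that involve RCD are therefore given with and without RCD libraries 3 and 4.

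Members were rare in liver. Together they received 2460 to 35565 counts per library in RCD (median 3874), 617 to 1462 in AM608 (median 1052) and 597 to 1566 in AM132 (median 956.5). Of the 48 members, 26 passed the filter on low counts and were tested, 8 in the Rtl1 block, 1 in the Rian block and 17 in the miR-379/miR-410 block. The other 22 had 7 to 667 counts over all 24 libraries. A member can pass the filter through RCD alone and then had to differ, so the tested members do not stand for all 48. Among the untested members, 17 had over 50% of their RCD counts in library 3, and so had 16 of the 26 tested members. Of the untested ones, 3 are given here. miR-323-3p had 607 of its 667 counts there, miR-666-5p 134 of 143 and miR-758-3p 55 of 57. miR-377-3p had 12 counts in RCD and 0 in both obese groups, where 3 counts per group would correspond to 0.0453 CPM in AM608 and 0.0598 CPM in AM132. The labels mention no molecular identifiers, and such limits cover counting error only.

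The summed level of the 48 miRNAs was several times higher in livers of chow-fed mice than in either obese group. As unscaled CPM, that is over all miRNA counts of the library, it was 666.5, 472 and 4960 in RCD libraries 1, 2 and 3, 914.5, 726 and 470.2 in libraries 4, 5 and 6, and 298 and 421.5 in libraries 7 and 8. In AM608 it ran from 79.9 to 202 (median 137) and in AM132 from 85.4 to 264 (median 130.2). Every RCD library lay above all 16 obese libraries, while the obese groups overlapped almost entirely. With TMM scaling the lowest RCD library, at 295.6 CPM, was barely above the highest AM132 library at 295.3 CPM. The mean was 1116 ± 1565 in RCD, 134 ± 40.6 in AM608 and 143 ± 56.7 in AM132 (SD, n = 8). Without RCD libraries 3 and 4 the RCD mean was 509 ± 159 (SD, n = 6), 3.79 times the AM608 mean and 3.56 times the AM132 mean. In these bulk libraries fewer cells that make a miRNA and less of it per cell cannot be told apart.

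**Figure D1:**
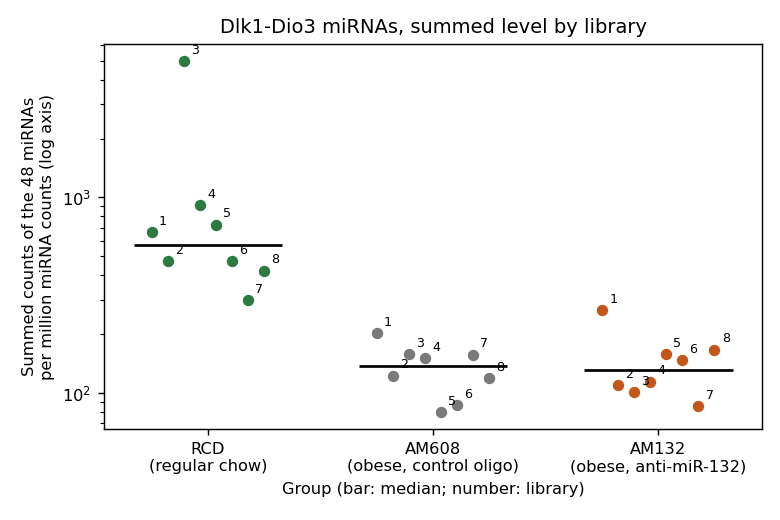
Summed counts of the 48 Dlk1-Dio3 miRNAs as unscaled CPM (log axis) in each of the 24 libraries, by group, with the library number beside each point and the group median as a bar. The RCD libraries lie between 298 and 4960 and the obese libraries between 79.9 and 264, with RCD library 3 far above the rest.

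The blocks shared this difference unequally. In unscaled CPM, the miR-379/miR-410 block summed to 239.5 to 3357 in RCD (median 499), 61.2 to 169 in AM608 (median 102) and 64.9 to 214 in AM132 (median 95.5), without overlap between RCD and the obese groups. The Rtl1 block summed to 43.9 to 1314 in RCD (median 80.9), 17.1 to 38.9 in AM608 (median 30.3) and 19.2 to 47.9 in AM132 (median 30.7). Here RCD and AM132 overlapped. Without RCD libraries 3 and 4, the RCD mean was 4.19 times the AM608 mean in the miR-379/miR-410 block and 2.44 times in the Rtl1 block. Against AM132 the ratios were 3.97 and 2.24.

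The make-up of the cluster was led by the same miRNAs in each group. miR-379-5p took 18.9% ± 4.21 of member counts in RCD, 20.3% ± 2.03 in AM608 and 21.4% ± 2.28 in AM132 (SD, n = 8). miR-541-5p took 12.03% ± 2.38, 12.3% ± 1.12 and 10.3% ± 0.628 in the same order, and miR-411-5p took 12.3% ± 2.71, 11.8% ± 1.16 and 12.01% ± 0.810. RCD library 3 had another order, with miR-381-3p first at 15.1% and miR-379-5p at 9.66%.

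**Figure D2:**
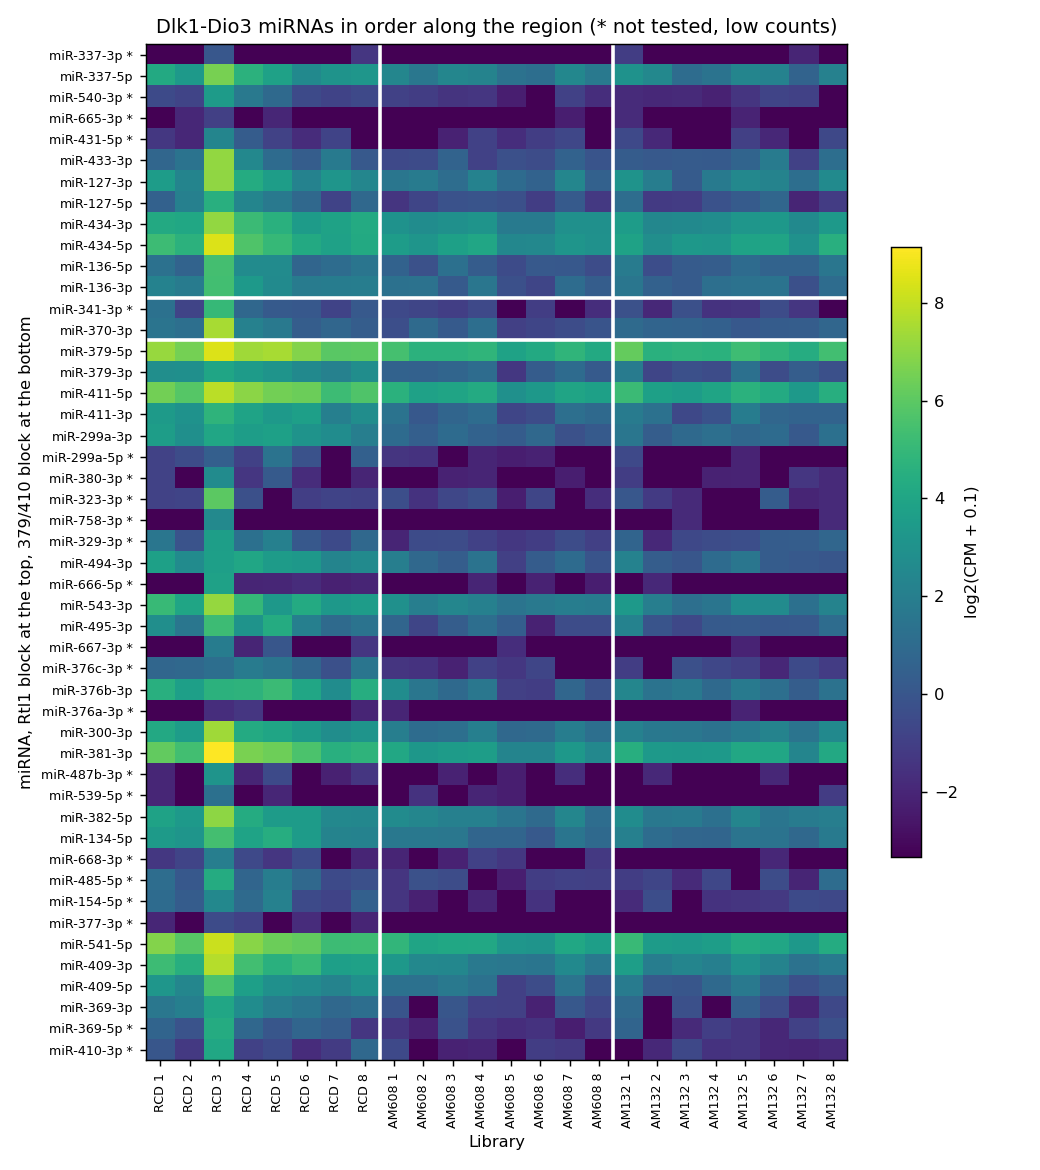
Level of each of the 48 miRNAs, as log2(CPM + 0.1), in the 24 libraries, with members in order along the region and white lines between blocks and groups; an asterisk marks the 22 members not tested. The 8 RCD columns are brighter than the 16 obese columns, and RCD library 3 is brightest, most of all among members that are dark elsewhere.

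The first comparison, AM608 against RCD, set obese mice given the control oligonucleotide against chow-fed mice. All 26 tested members fell in AM608, where 15.2% of the 421 tested miRNAs were called lower (edgeR's quasi-likelihood test, Benjamini-Hochberg adjusted p under 0.05). Their median log2 fold change was -2.87, with a range from -4.63 to -2.40, and the median over all tested miRNAs was -0.03. In 18 of them the 2 groups did not overlap, against 5.23% of all tested miRNAs, and the number was again 18, against 6.89%, when RCD libraries 3 and 4 were left out. All 26 were again called lower without RCD libraries 3 and 4, with 19.1% of 429 miRNAs called, and the median was -2.14 (range -3.25 to -1.06). With RCD library 3 alone left out the median was -2.21 and 26 were called, with 15.9% of 422 miRNAs called lower. When the filter used the obese libraries only, 18 members were tested and 18 called lower, with 15.8% of 399 miRNAs called lower. With no filter, 44 of 48 members were called lower, with 8.38% of 1324 miRNAs called.

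Among the most abundant members, miR-379-5p, the first miRNA of the miR-379/miR-410 block, was counted at 60.7 to 359 CPM in RCD (median 130), 14.1 to 44.5 in AM608 (median 25.6) and 20.9 to 72.4 in AM132 (median 27.2). miR-411-5p, from the next hairpin, was at 36.7 to 231 CPM in RCD (median 83.9), 7.44 to 25.1 in AM608 (median 14.6) and 10.7 to 36.4 in AM132 (median 17.6). RCD and AM608 were apart in both, and for miR-379-5p alone of the pair the highest AM132 library passed the lowest RCD library. In AM608 against RCD, miR-379-5p changed by -2.53 ± 0.34 (log2, SE; edgeR adjusted p = 3.57e-06). miR-411-5p changed by -2.67 ± 0.34 (edgeR adjusted p = 1.55e-06). Both were still called without RCD libraries 3 and 4, at -2.16 ± 0.29 and -2.23 ± 0.28.

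Further along the miR-379/miR-410 block, miR-381-3p was at 23.2 to 561 CPM in RCD (median 60.0), 4.75 to 17.6 in AM608 (median 9.76) and 4.97 to 22.6 in AM132 (median 13.5). miR-541-5p was at 37.6 to 281 CPM in RCD (median 75.3), 8.49 to 29.7 in AM608 (median 16.4) and 9.80 to 34.1 in AM132 (median 14.1). miR-409-3p was at 13.01 to 218 CPM in RCD (median 28.4), 2.79 to 9.87 in AM608 (median 4.25) and 2.49 to 12.6 in AM132 (median 4.33). All 3 were higher in every RCD library than in any obese library. Their changes in AM608 against RCD were -3.66 ± 0.57 for miR-381-3p, -2.66 ± 0.38 for miR-541-5p and -3.39 ± 0.53 for miR-409-3p (log2, SE), with edgeR adjusted p of 2.46e-05, 7.67e-06 and 2.46e-05. They were -2.57, -2.22 and -2.45 without RCD library 3, and -2.44 ± 0.34, -2.13 ± 0.31 and -2.37 ± 0.34 without libraries 3 and 4. miR-382-5p, at the start of Mirg, was at 5.25 to 129 CPM in RCD (median 11.3), 1.90 to 6.34 in AM608 (median 4.16) and 2.33 to 6.60 in AM132 (median 3.41), with a small overlap. Its change of -2.72 ± 0.55 in AM608 (edgeR adjusted p = 0.000447) became -1.50 without RCD library 3 and -1.34 ± 0.28 without libraries 3 and 4.

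In the Rtl1 block, miR-434-5p was at 13.8 to 356 CPM in RCD (median 28.9), 5.27 to 16.4 in AM608 (median 9.01) and 6.98 to 23.1 in AM132 (median 12.1). The other arm, miR-434-3p, was at 11.2 to 137 CPM in RCD (median 19.1), 3.30 to 8.71 in AM608 (median 7.47) and 5.28 to 11.7 in AM132 (median 7.88). Groups overlapped for miR-434-5p in both comparisons with RCD, and for miR-434-3p in AM132 alone. The changes in AM608 against RCD were -2.84 ± 0.57 for miR-434-5p and -2.40 ± 0.42 for miR-434-3p (log2, SE; edgeR adjusted p = 0.000406 and 0.000102), and -1.39 ± 0.28 and -1.47 ± 0.23 without RCD libraries 3 and 4. Without RCD library 3 alone they were -1.55 and -1.61.

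miR-127-3p, best known for its match to Rtl1, was at 4.51 to 134 CPM in RCD (median 10.2), 1.37 to 5.23 in AM608 (median 2.46) and 1.10 to 8.30 in AM132 (median 4.20). miR-127-5p was at 0.473 to 22.9 CPM in RCD (median 2.45), 0.282 to 1.07 in AM608 (median 0.610) and 0.146 to 2.07 in AM132 (median 0.573). Both arms overlapped between RCD and each obese group. In AM608 against RCD, miR-127-3p changed by -3.14 ± 0.65 and miR-127-5p changed by -3.03 ± 0.63 (log2, SE; edgeR adjusted p = 0.000521 and 0.000545), and by -1.52 ± 0.36 and -1.79 ± 0.46 without RCD libraries 3 and 4. With library 3 alone left out they were -1.76 ± 0.37 and -2.0 ± 0.45.

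From Mir136, which also lies opposite Rtl1, miR-136-5p was at 1.45 to 42.8 CPM in RCD (median 2.59), 0.620 to 2.36 in AM608 (median 0.987) and 0.681 to 3.58 in AM132 (median 1.45). miR-136-3p was at 3.53 to 40.6 CPM in RCD (median 4.15), 0.507 to 2.85 in AM608 (median 1.59) and 0.731 to 2.83 in AM132 (median 2.09). The 3p arm was the only one of the pair without overlap. In AM608 against RCD, miR-136-5p changed by -2.91 ± 0.63 and miR-136-3p by -2.54 ± 0.51 (log2, SE; edgeR adjusted p = 0.000876 and 0.000445). When RCD libraries 3 and 4 were left out the changes were -1.39 ± 0.37 and -1.41 ± 0.32, and without RCD library 3 alone -1.57 and -1.63.

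miR-433-3p of the Rtl1 block and miR-370-3p of the Rian block had the largest changes, and both rested on RCD library 3. miR-370-3p was at 2.70, 2.25 and 184 CPM in RCD libraries 1, 2 and 3, and at 1.17 to 4.29 in the other 5. In AM608 it was at 0.413 to 2.14 (median 0.774) and in AM132 at 0.969 to 1.89 (median 1.38). miR-433-3p was at 1.65, 2.57 and 137 CPM in RCD libraries 1, 2 and 3 and at 1.02 to 5.58 in the other 5, against 0.428 to 1.44 in AM608 (median 0.678) and 0.439 to 3.53 in AM132 (median 1.12). Outside library 3, the RCD values of both miRNAs reached into those of the obese groups. In AM608 against RCD the change was -4.63 ± 1.00 for miR-370-3p and -4.51 ± 0.96 for miR-433-3p (log2, SE; edgeR adjusted p = 0.000876 and 0.000688). Without RCD library 3 these were -1.22 and -1.57, and without libraries 3 and 4 they were -1.06 ± 0.33 (edgeR adjusted p = 0.0159) and -1.31 ± 0.37 (edgeR adjusted p = 0.00969).

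**Figure D3:**
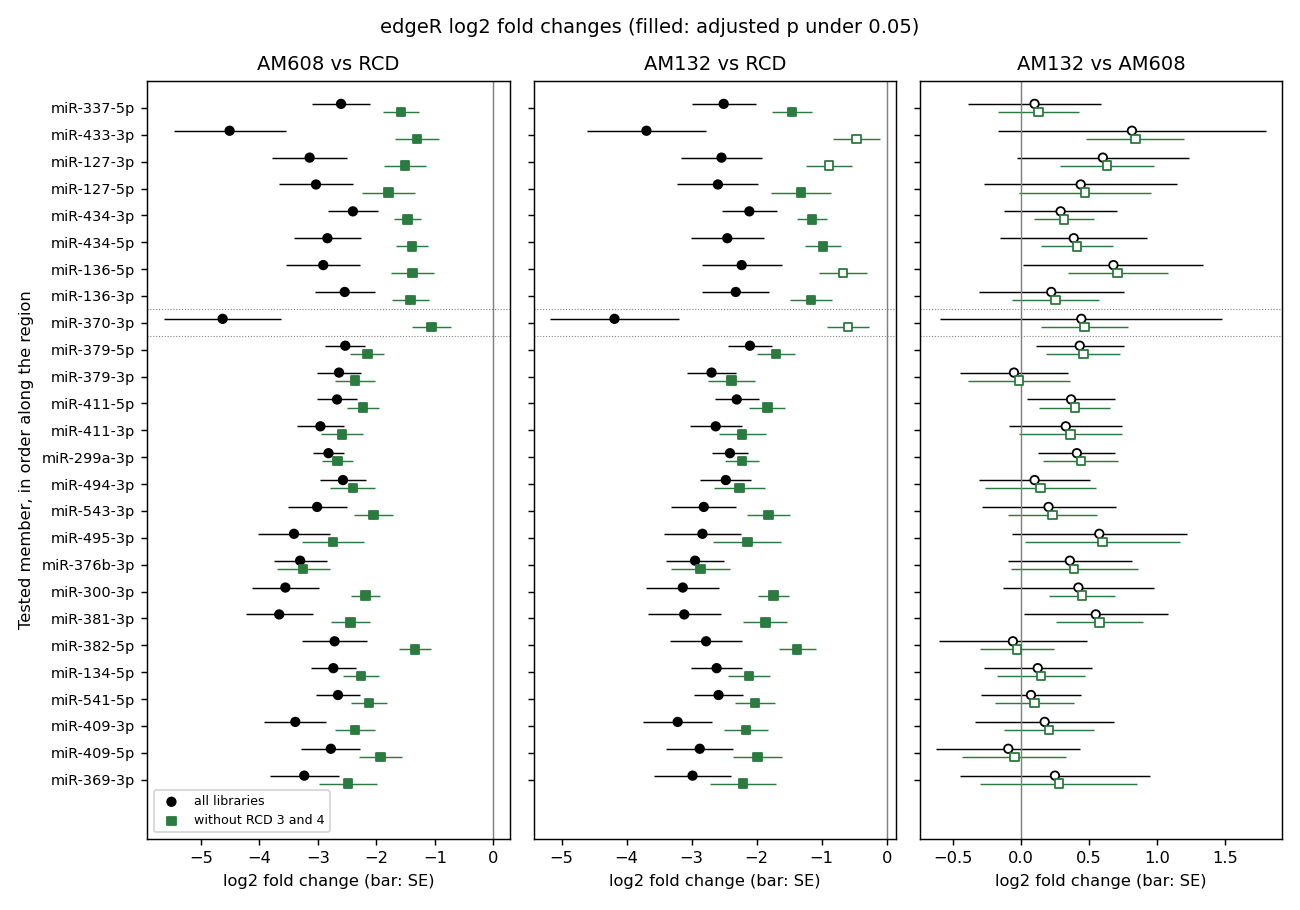
log2 fold change with its SE for the 26 tested members, in order along the region, in the 3 comparisons, with all libraries (circles) and without RCD libraries 3 and 4 (squares); filled symbols have an edgeR adjusted p under 0.05 and dotted lines separate the blocks. Against RCD every estimate is below 0, and without libraries 3 and 4 the estimates of the Rtl1 and Rian blocks move toward 0 more than most of the miR-379/miR-410 block.

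The second comparison, AM132 against RCD, used the same RCD libraries, so it is not independent of the first. All 26 tested members were lower in AM132, with 18.8% of 421 miRNAs called lower (edgeR's quasi-likelihood test). The median log2 fold change was -2.62 (range -4.19 to -2.10), and 0.03 over all tested miRNAs. Scaling by library totals alone shifted the latter by -0.19 and left all 26 members below 0. In 13 members the groups did not overlap, against 5.7% of tested miRNAs, and again in 13, against 6.89%, when RCD libraries 3 and 4 were left out. When RCD libraries 3 and 4 were left out, 22 of 26 were called, with 16.6% of 429 miRNAs called, and the median was -1.83 (range -2.86 to -0.47). Without RCD library 3 alone 23 were called, with 18% of 422 miRNAs called lower, and the median was -1.99. When the filter used the obese libraries only, 18 members were tested and 18 called lower, with 18.8% of 399 miRNAs called lower. With no filter 42 of 48 were called, with 9.14% of 1324 miRNAs called.

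The members called by edgeR with all libraries and not without RCD libraries 3 and 4 were miR-433-3p, miR-370-3p, miR-136-5p and miR-127-3p. miR-433-3p went from -3.69 ± 0.92 to -0.47 ± 0.36 (log2, SE; edgeR adjusted p = 0.00258 and 0.344). miR-370-3p went from -4.19 ± 0.99 to -0.59 ± 0.33 (edgeR adjusted p = 0.00169 and 0.18). miR-136-5p went from -2.23 ± 0.61 to -0.67 ± 0.37 (edgeR adjusted p = 0.00633 and 0.174). The edgeR call for these 3 was also lost without RCD library 3 alone, at -0.78, -0.80 and -0.92 (edgeR adjusted p = 0.12, 0.0602 and 0.0627). miR-127-3p went from -2.54 ± 0.63 to -0.88 ± 0.35 (edgeR adjusted p = 0.00258 and 0.0646), and was -1.17 without library 3 alone. All 4 lie in the Rtl1 and Rian blocks.

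The abundant members of the miR-379/miR-410 block were called by edgeR in AM132 with all libraries and without RCD libraries 3 and 4. miR-541-5p changed by -2.59 ± 0.38 and miR-411-5p by -2.31 ± 0.34, and by -2.03 ± 0.31 and -1.84 ± 0.28 without those libraries (log2, SE). miR-409-3p changed by -3.21 ± 0.53, by -2.31 without RCD library 3, and by -2.16 ± 0.34 without RCD libraries 3 and 4 (log2, SE; edgeR adjusted p = 4.03e-05 and 2.97e-05). miR-381-3p changed by -3.11 ± 0.56, by -2.05 without RCD library 3, and by -1.87 ± 0.34 without libraries 3 and 4 (edgeR adjusted p = 0.000109 and 0.000132). miR-379-5p had the smallest change of the cluster with all libraries, -2.10 ± 0.34, and -1.70 ± 0.29 without libraries 3 and 4 (edgeR adjusted p = 2.63e-05 and 7.04e-05). miR-434-3p of the Rtl1 block was close to it at -2.11 ± 0.42, at -1.35 without RCD library 3, and at -1.15 ± 0.23 without libraries 3 and 4 (edgeR adjusted p = 0.000341 and 0.00035).

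The third comparison, AM132 against AM608, was between obese mice that differed in the oligonucleotide. No difference of a member was called by edgeR: 0 of 26 were called lower and 0 higher, with 8.31% of 421 miRNAs called lower and 4.04% higher. The smallest adjusted p among members was 0.423, and 0 members had an unadjusted p under 0.05. DESeq2 and limma voom also called 0. The median log2 fold change was 0.34, with 23 members above 0 and 3 below, and 0.05 over all tested miRNAs. Scaled by library totals alone, the median over all tested miRNAs shifted by -0.25 and that of members was 0.10, with 16 above 0 and 10 below. The largest estimates were 0.82 ± 0.99 for miR-433-3p, 0.68 ± 0.66 for miR-136-5p and 0.60 ± 0.63 for miR-127-3p (log2, SE). The smallest were -0.05 ± 0.40 for miR-379-3p, -0.06 ± 0.55 for miR-382-5p and 0.07 ± 0.37 for miR-541-5p. With SEs of this size, these values do not show that the groups are alike.

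RCD library 3 raised some members far more than others. Its CPM over the median CPM of the other 7 RCD libraries was 1.17 for miR-376b-3p, 1.295 for miR-494-3p and 1.93 for miR-299a-3p, and 17.8 for miR-136-5p, 70.5 for miR-433-3p and 81.9 for miR-370-3p. The median of this ratio over the 26 tested members was 9.02, and 24 of 26 had their highest RCD value in that library. In the Rtl1 block the ratio ran from 7.30 to 70.5, and in the miR-379/miR-410 block from 1.17 to 14.3. The members least raised in library 3 were also higher in the other 7 RCD libraries than in the obese ones. The ratio of the median of those 7 to the median of the 16 obese libraries was 9.11 for miR-376b-3p, 8.45 for miR-494-3p and 4.91 for miR-299a-3p, against 1.88 for miR-433-3p, 1.96 for miR-370-3p and 2.08 for miR-136-5p. Both ratios contain the median of the 7 RCD libraries, so an inverse relation between them is partly built in.

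These members were chosen for their ratio in RCD library 3 after their values were seen. miR-376b-3p was at 23.1, 13.01, 25.4 and 26.7 CPM in RCD libraries 1 to 4 and at 35.8, 16.7, 6.62 and 21.7 in libraries 5 to 8, against 0.380 to 6.48 in AM608 and 1.17 to 5.09 in AM132. No RCD library overlapped an obese one, and library 3 was not the highest. Its change was -3.30 ± 0.45 in AM608 and -2.95 ± 0.45 in AM132 with all libraries, and -3.25 ± 0.45 and -2.86 ± 0.45 without libraries 3 and 4 (log2, SE). Reads of miR-376b-3p could be shared with the near-identical miR-376a-3p. miR-299a-3p was at 3.94 to 16.3 CPM in RCD (median 10.2), 0.747 to 1.97 in AM608 and 1.02 to 2.83 in AM132, again without overlap. It had the smallest adjusted p of the cluster in both comparisons with RCD (edgeR adjusted p = 2.61e-08 in AM608 and 1.79e-07 in AM132). Its values without libraries 3 and 4 were 6.52e-08 and 5.29e-07.

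**Figure D4:**
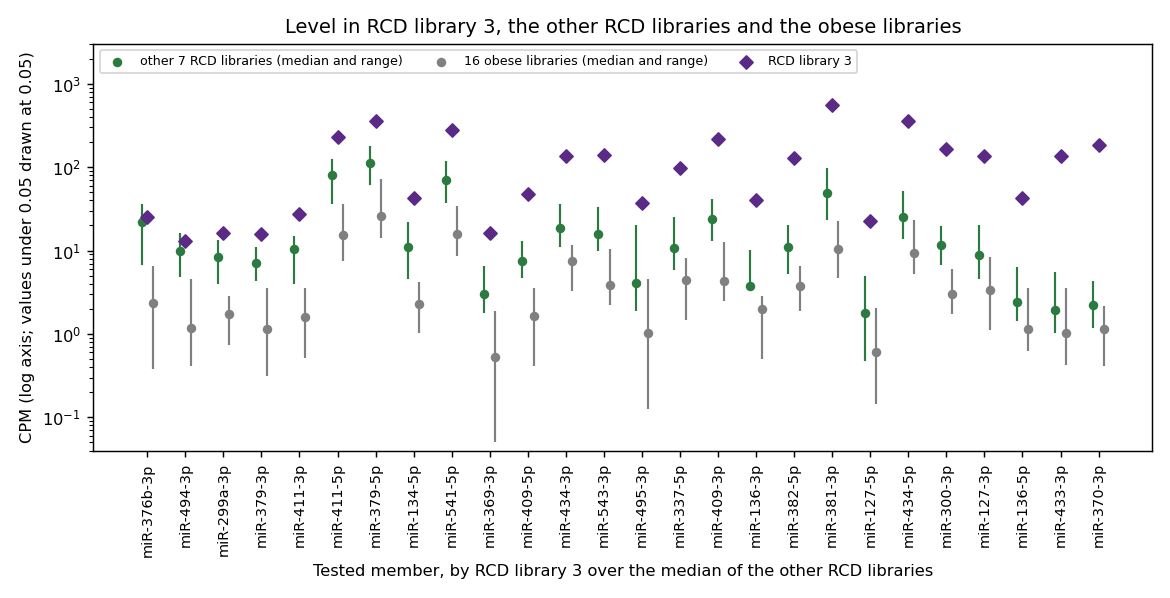
CPM (log axis) of the 26 tested members in RCD library 3 (diamonds), in the other 7 RCD libraries (green, median and range) and in the 16 obese libraries (grey, median and range), ordered by how far RCD library 3 lies above the other RCD libraries. On the left miR-376b-3p is at 25.4 CPM in library 3, within the range of the other chow libraries; on the right miR-370-3p reaches 184 CPM in library 3 while its other chow values lie near the obese ones.

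By block, the median log2 fold change in AM608 against RCD was -2.87 over the 8 tested members of the Rtl1 block and -2.82 over the 17 of the miR-379/miR-410 block. Without RCD libraries 3 and 4 these were -1.44 (range -1.79 to -1.31) and -2.37 (range -3.25 to -1.34). In AM132 against RCD without those libraries they were -1.06 and -2.12, with 5 of 8 and 17 of 17 called lower by edgeR, where 16.6% of 429 miRNAs were called lower. The difference between blocks was not tested. miR-382-5p, at -1.34, was the member of the miR-379/miR-410 block nearest to the Rtl1 block.

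Both arms of 6 precursors (Mir127, Mir136, Mir379, Mir409, Mir411 and Mir434) were tested for a change in the log2 ratio of the 3p to the 5p arm by two-sided exact permutation tests, 18 tests in all. None was called after adjustment: 0 of 18 passed, 2 had an unadjusted p under 0.05, and the smallest p that a comparison allows is 0.0001554. The 5p arm led in Mir379 and Mir411, and the 3p arm in Mir127 and Mir409. The ratio for Mir379 was -4.00 ± 0.441 in RCD, -4.26 ± 0.547 in AM608 and -4.84 ± 0.631 in AM132 (log2, SD, n = 8 per group), and the difference of -0.84 between AM132 and RCD had the smallest p (exact permutation p = 0.00995, adjusted p = 0.179). The ratio for Mir411 was -2.97 ± 0.194 in RCD, -3.33 ± 0.395 in AM608 and -3.39 ± 0.673 in AM132 (log2, SD, n = 8), with an exact permutation p of 0.041 for AM608 against RCD (adjusted p = 0.35). In the Mir434 hairpin the ratio was -0.57 ± 0.487 in RCD, -0.54 ± 0.296 in AM608 and -0.61 ± 0.277 in AM132, and in Mir136 it was 0.64 ± 0.494, 0.46 ± 1.01 and 0.15 ± 0.703.

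The less abundant arms of 3 of these hairpins were also lower in both obese groups. miR-379-3p was at 4.38 to 16.0 CPM in RCD (median 7.22), 0.310 to 2.00 in AM608 (median 1.39) and 0.511 to 3.58 in AM132 (median 0.728). miR-411-3p, which has the same seed, was at 4.02 to 27.2 CPM in RCD (median 10.6), 0.516 to 2.54 in AM608 (median 1.68) and 0.552 to 3.60 in AM132 (median 1.53). miR-409-5p was at 4.73 to 47.98 CPM in RCD (median 7.52), 0.413 to 3.14 in AM608 (median 2.38) and 0.731 to 3.58 in AM132 (median 1.26). In all 3, RCD lay wholly above both obese groups. In AM608 and AM132 against RCD, miR-379-3p changed by -2.64 ± 0.37 and -2.69 ± 0.38 (edgeR adjusted p = 5.51e-06 and 5.41e-06), and miR-411-3p by -2.96 ± 0.40 and -2.63 ± 0.40 (edgeR adjusted p = 3.86e-06 and 1.46e-05). For miR-409-5p the changes were -2.78 ± 0.51 and -2.87 ± 0.52 (edgeR adjusted p = 0.000138 and 0.000107), and -2.05 and -2.16 without RCD library 3. With RCD libraries 3 and 4 left out, the changes in AM608 and AM132 were -2.37 ± 0.35 and -2.38 ± 0.36 for miR-379-3p, -2.59 ± 0.36 and -2.22 ± 0.36 for miR-411-3p, and -1.93 ± 0.36 and -1.98 ± 0.38 for miR-409-5p, all still called by edgeR.

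Other mature products of the region, outside the 48, were mostly too scarce to test. Of 63 listed, 61 were in the table, 17 had no count and 3 were tested. miR-382-3p, the other arm of Mir382, changed by -2.86 ± 0.49 in AM608 and -2.68 ± 0.49 in AM132 against RCD (edgeR adjusted p = 7.1e-05 and 0.000135), and by -2.02 and -1.81 without RCD libraries 3 and 4. miR-485-3p changed by -2.96 ± 0.48 and -2.31 ± 0.47 (edgeR adjusted p = 3.18e-05 and 0.000353), and by -2.48 and -1.78 without them. miR-329-5p had too few counts for the test, with 6 to 217 in RCD and 1 to 8 in the obese libraries. miR-1247-5p, from a precursor beside Dio3 at the far end of the region, went the other way, at 1.18 ± 0.36 in AM132 (edgeR adjusted p = 0.0123) and 0.69 ± 0.36 in AM608 (edgeR adjusted p = 0.165). Its call in AM132 was lost without RCD libraries 3 and 4, at 0.82 ± 0.32 (edgeR adjusted p = 0.0581).

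Some markers of other cell types were also called lower against RCD and others were not. The lists are short, and their counts of calls were not tested against the share over all miRNAs. Of 13 neural miRNAs listed, 1 had no count and 5 were tested. In AM608 2 were called lower and in AM132 2, where 15.2% and 18.8% of 421 miRNAs were called lower. Without RCD libraries 3 and 4, 19.1% and 16.6% of 429 miRNAs were called lower. Of the neural miRNAs, 2 were then called lower and 1 higher in AM608, and 1 lower in AM132. Their summed level was 905 CPM in RCD library 3, 81.7 in library 4 and 22.98 to 68.9 in the other 6, against 33.9 to 47.9 in AM608 and 19.6 to 42.8 in AM132. miR-9-5p had 11, 23, 5067, 317, 214, 104, 206 and 54 counts in RCD libraries 1 to 8 and 11 to 61 in the obese libraries. Its log2 fold change was -4.27 ± 0.86 in AM608 and -4.83 ± 0.90 in AM132 (edgeR adjusted p = 0.000453 and 0.000156), and -1.86 ± 0.46 and -2.40 ± 0.48 without RCD libraries 3 and 4. The second most abundant neural marker, miR-129-5p, was at 258 CPM in RCD library 3 and 10.6 to 19.8 in the other 7, against 19.7 to 33.7 in AM608 and 8.86 to 24.4 in AM132. It was not called against RCD with all libraries (edgeR adjusted p = 0.27 and 0.0517), and without libraries 3 and 4 it was higher in AM608, at 0.76 ± 0.20 (edgeR adjusted p = 0.0062). The other neural marker called lower was miR-137-3p, at -1.09 in AM608 and -0.76 in AM132 (edgeR adjusted p = 0.00154 and 0.0208), and -1.01 and -0.65 without those libraries (edgeR adjusted p = 0.00464 and 0.0657). miR-124-3p, a miRNA of neurons named here after its values were seen, had 0, 1, 81, 27, 9, 0, 14 and 6 counts in RCD libraries 1 to 8 and 0 or 1 in the obese libraries.

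RCD libraries 1 and 2 are described apart here, a choice made after their values were seen. In both, the summed neural markers, miR-9-5p and miR-124-3p lay within or close to the obese range, and the cluster lay above it. Their summed neural level was 22.98 and 27.3 CPM, miR-9-5p was at 1.65 and 3.69 CPM against 1.65 to 8.71 in the obese libraries, and miR-124-3p had 0 and 1 counts. In library 1, 23 of 26 tested members lay above all 16 obese libraries, and in library 2, 22 of 26. Against the obese median, the 26 tested members had a median ratio of 5.69 in library 1 and 3.78 in library 2. A member can pass the filter through RCD alone, so these ratios are partly set by the filter. In the other 6 RCD libraries miR-9-5p ran from 7.87 to 530 CPM. Whether cells that carried neural miRNAs also carried members was not tested in any library, including libraries 1 and 2. The muscle list summed to 334 CPM in RCD library 3, 154 in library 4 and 18.95 to 39.1 in the other 6, against 10.5 to 39.2 in AM608 and 11.9 to 64.6 in AM132, and its part was not tested either.

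Other lists were examined in the same way. The 3 pancreatic acinar miRNAs were too scarce to test and summed to 2.10, 0.803, 3.87 and 1.43 CPM in RCD libraries 1 to 4 and to 0.292 to 2.94 in the other 4, against 0.107 to 1.69 in AM608 and 0.368 to 0.720 in AM132. Without RCD libraries 3 and 4 their RCD mean was 2.30 times the AM608 mean and 2.70 times the AM132 mean, on few counts. Single libraries did not all follow the cluster: RCD library 8, at 0.292 CPM, lay below every AM132 library. AM608 libraries 1 and 2 reached 1.69 and 1.49 CPM. Per library, miR-217-5p had 2 to 22 counts in RCD, 0 to 7 in AM608 and 0 to 4 in AM132. Summed by group, miR-216b-5p had 28 counts in RCD, 12 in AM608 and 2 in AM132. miR-216a-5p, named after its values were seen, had 6 counts in RCD, 2 in AM608 and 15 in AM132. The part of this list was not tested. Of 6 mesenchymal miRNAs tested, 1 was called lower in AM608 and 2 in AM132 against RCD, with and without RCD libraries 3 and 4. With all libraries their median log2 fold change was 0.08 in AM608 and -0.43 in AM132. In AM608, miR-199a-3p, miR-199a-5p, miR-199b-5p and miR-214-3p were above 0, at 0.18, 0.12, 0.04 and 0.12, not called. In AM132 they were at -0.56, -0.11, -0.67 and 0.09, with miR-199a-3p called lower (edgeR adjusted p = 0.0155). miR-143-3p was at -0.25 and -0.31, not called. miR-145a-5p, called lower in both, is a miRNA of smooth muscle and stellate cells and was named after its values were seen. It ran from 243 to 604 CPM in RCD, 212 to 288 in AM608 and 187 to 293 in AM132. Its changes were -0.65 ± 0.15 in AM608 and -0.61 ± 0.15 in AM132 (edgeR adjusted p = 0.00145 and 0.00234), and -0.50 ± 0.12 and -0.43 ± 0.12 without RCD libraries 3 and 4 (edgeR adjusted p = 0.00301 and 0.0101), smaller than those of the members. In RCD libraries 1 and 2 it was at 243 and 295 CPM, the first within the obese range and the second just above it, and its part in the result was not tested. Of the leukocyte list 0 of 4 and of the erythroid list 0 of 3 were called against RCD with all libraries, and 1 leukocyte miRNA was called lower in AM132 without RCD libraries 3 and 4. The endocrine list had 1 of 3 called lower in both comparisons, and 0 without RCD libraries 3 and 4. The biliary list had 1 of 5 called higher in AM608 and 0 in AM132, and the endothelial list 1 of 2 higher in both. The hepatocyte list had 1 of 6 lower in AM608 and 2 of 6 higher in AM132. Without RCD libraries 3 and 4 the biliary list had 0 called in AM608 and 1 lower in AM132. The endothelial list again had 1 higher in both, and the hepatocyte list 3 of 6 lower in AM608 and 2 higher in AM132. Over all tested miRNAs, 15.2% were called lower in AM608 and 18.8% in AM132 with all libraries. Without RCD libraries 3 and 4 the shares were 19.1% and 16.6%. The share called higher against RCD is not given.

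**Figure D5:**
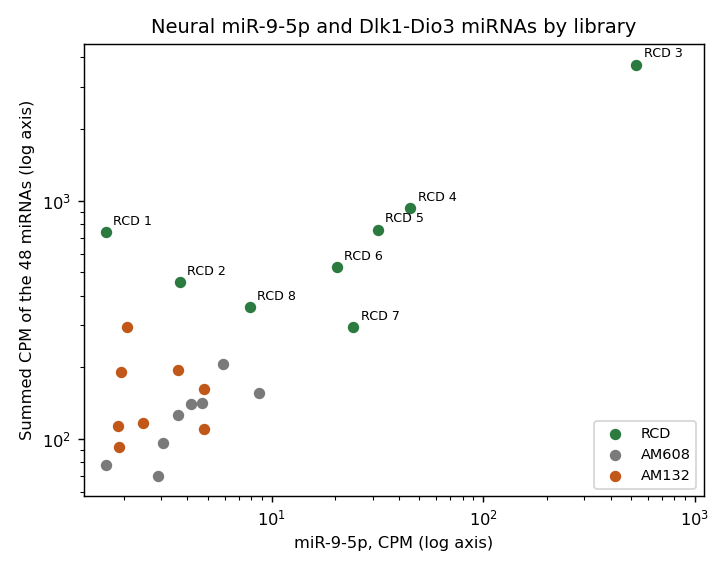
Summed CPM of the 48 Dlk1-Dio3 miRNAs against the CPM of the neural miRNA miR-9-5p, 1 point per library, both axes on a log scale. RCD libraries 1 and 2, pointed out after their values were seen, lie at 1.65 and 3.69 CPM of miR-9-5p, among the obese libraries on that axis. RCD library 3 lies at 530 CPM. On the other axis every RCD library lies above the obese ones, the lowest barely.

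The promoter of Meg3, from which the maternal transcripts of the domain are thought to start, is shown for reference. Transcripts of Meg3, Rian and Mirg were not measured in the counts used here, and a part of this promoter in the differences was not tested. The sequence covers 250 bases before to 50 bases after the start in RefSeq (GRCm38.p6), at chr12:109540746-109541045 on the + strand. The cyclic AMP response element TGACGTCA is in capitals.
Meg3: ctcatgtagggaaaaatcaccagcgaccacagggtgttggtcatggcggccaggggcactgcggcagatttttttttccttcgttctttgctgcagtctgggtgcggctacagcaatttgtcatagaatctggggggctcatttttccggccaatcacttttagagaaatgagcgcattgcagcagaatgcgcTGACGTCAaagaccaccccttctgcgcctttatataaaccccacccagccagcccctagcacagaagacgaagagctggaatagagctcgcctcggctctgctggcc
This palindromic motif, searched on both strands, was found 1 time in the window, 57 bases before the start, and in 1.79% of 32851 promoters of the same length. The window held 13 CpG sites, against a median of 7, which placed it at percentile 62.1 of the promoters. A match is a description of letters, and binding was not measured.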

How the data were processed

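Small RNA was sequenced from 24 liver samples, 8 per group. Per the labels' protocols, RNA (RIN above 8.4) was extracted with a column kit and 300 ng went into ligation-based small RNA libraries sequenced on an Illumina instrument. The authors deposited raw read counts per mature miRNA. The submitters' processing notes name FastQC. No source used here gives the aligner, trimming, genome build or rule for assigning reads to miRNAs. That rule could move counts between near-identical miRNAs, and miR-142-3p, abundant in blood cells, is listed at 0 in every library. Column names carry group and number, which tied each column to its sample, and 0 columns were left without one. Libraries of 1 group always differed by more than counting noise: over 84 pairs the chi-square per degree of freedom was at least 25.7.

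The counts went into edgeR 4.0.16, run in R 4.3.3 (robust quasi-likelihood fit, TMM factors, filterByExpr, all 3 groups in 1 fit, group as the only term), with Benjamini-Hochberg adjustment over all tested miRNAs and a threshold of 0.05. The script was tested on simulated data. An SE is the log2 fold change divided by the square root of F. CPM uses TMM-scaled library sizes, and unscaled CPM the total of miRNA counts. Arm ratios, log2 with a pseudocount of 0.5, were compared by exact permutation tests adjusted over 18 tests. Alternatives were RLE factors or library totals, other filters, DESeq2 1.42.0, limma 3.58.1 (voom), 2-group fits, a replicate block, and leaving out libraries. The members, marker lists and other region products were chosen with earlier results of these data known. Members named with values are the 6 with the highest mean CPM, the 3 largest and 3 smallest changes of each comparison, both arms of tested pairs, members sharing a seed, and, where stated, some chosen after their values were seen. Of other region products the 4, and of each marker list the 2, with the highest mean CPM were to be named. Others, among them miR-124-3p, miR-137-3p, miR-145a-5p and miR-216a-5p, were added after their values were seen. The count table of tRNA fragments was not used here.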

Additional observations from a re-analysis of the deposited data

Results flagged for a closer look

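Of 54 groups of 8 libraries examined for the named members and the cluster sum, 13 held a library set apart from its group by a gap, relative to the group's range on the log2 scale, above Dixon's critical value; chance alone gives about 1 such group in 20. In 12 of the 13 the library was RCD 3. The cluster sum there was 4960 in unscaled CPM. In the miR-379/miR-410 block, RCD library 3 stood apart for miR-381-3p (561 CPM), miR-409-3p (218 CPM), miR-409-5p (47.98 CPM) and miR-382-5p (129 CPM). In the Rtl1 block it stood apart for miR-434-5p (356 CPM), miR-434-3p (137 CPM), miR-127-3p (134 CPM), miR-136-5p (42.8 CPM), miR-136-3p (40.6 CPM) and miR-433-3p (137 CPM), and in the Rian block for miR-370-3p (184 CPM). The remaining case was a low value, miR-379-3p at 0.310 CPM in AM608 library 5, where it had 3 counts.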

How the results depend on the processing

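The count of members called lower against RCD followed the filter. With no filter it was 44 in AM608 and 42 in AM132, of 48 tested, where 8.38% and 9.14% of 1324 miRNAs were called lower. With a mean of at least 10 CPM it was 13 in both, of 13 tested. Leaving out 1 library at a time, it ran from 26 to 27 in AM608 and from 23 to 27 in AM132, the lowest without RCD library 3, and stayed at 0 in AM132 against AM608. The median log2 fold change of members ran from -3.04 to -2.21, from -2.82 to -1.99 and from 0.15 to 0.46 in the 3 comparisons. Scaled by library totals, miR-409-3p and miR-541-5p turned to -0.064 and -0.17 in AM132 against AM608. There, leaving out 1 library gave -0.12 to 0.40 for miR-409-3p, -0.16 to 0.26 for miR-541-5p, -0.44 to 0.055 for miR-379-3p and -0.22 to 0.064 for miR-382-5p; the cause was not tested. In AM608 against RCD, limma voom called 24, losing miR-370-3p and miR-433-3p (adjusted p = 0.0695 and 0.0547). In AM132 against RCD, DESeq2 called 24 and limma voom 23. Same-numbered samples of different groups deviated together weakly at most. Their correlations ran from -0.42 to 0.40 (median 0.05, against -0.02 for other pairs), with 10 of 24 above 0.1. Of 24 libraries, 5 correlated best with their own number. These values do not establish a pairing by number and cannot exclude one. With the replicate block 26 members were called lower in AM608, 23 in AM132 and 0 in AM132 against AM608. For the mean CPM filter, DESeq2, limma voom and the replicate block, the share called over all tested miRNAs is not given. The same holds for the fits without 1 library, other than RCD library 3. Those counts of members therefore have no share to be set against. Arm ratios had 0 calls under every alternative run. The 22 untested members had 7 to 667 counts each over all libraries. The total alone does not separate them from tested members: miR-323-3p, untested, had 667 counts, 607 of them in RCD library 3, and miR-369-3p, tested, had 382.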
